A study of Rattus norvegicus with 6 samples.

Results

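The tricarboxylic acid cycle runs in the mitochondrial matrix, where its enzymes oxidise the acetyl groups of acetyl-CoA and hand electrons to the respiratory chain. The enzymes described here are those that work in the matrix as soluble proteins or complexes. They were chosen by name as 9 gene symbols (Cs, Idh2, Idh3a, Idh3b, Ogdh, Sucla2, Suclg1, Suclg2 and Mdh2), without use of their measured values, and 8 of the 9 were found among the 18625 named genes. Ogdh is not analysed here. In islets, mitochondrial oxidation of glucose carbon links blood glucose to ATP production and so to insulin release, and intermediates that leave the cycle serve as signals and building blocks.

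Total RNA of rat pancreatic islets, the hormone-secreting tissue of the pancreas, was sequenced after birth and at embryonic day 19 (E19, called fetal), with 3 libraries in each group. By their titles the postnatal libraries are all from 2 weeks of age, but the age field reads week 2 for replicate 1, week 3 for replicate 2 and week 4 for replicate 3; the titles set the groups used here. No strain, sex, genotype or treatment is stated for either group. The labels do not say whether a group's libraries came from different animals, and the p-values therefore cover no more than the spread among these libraries, which may be technical.

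Values are in scaled CPM, the authors' read counts expressed as CPM of a library size adjusted between libraries. Depth was 28174506 to 29515446 reads in the postnatal and 26051449 to 37819935 reads in the fetal libraries, and each of the 8 genes had between 527 and 21531 reads in every library. The labelled tissue, islet cells, was checked against marker lists, and acinar markers took more reads than endocrine markers in all 6 libraries, which goes against islet cells as the main source of the RNA. The libraries are called by age below. Shares of reads are not shares of cells. Endocrine markers took 4.15% to 11.2% of the reads in the postnatal and 0.255% to 0.671% in the fetal libraries, and 8 of 9 tested were higher after birth. Acinar markers (acinar cells make the digestive enzymes of the pancreas) took 24.6% to 49.3% in the postnatal and 9.13% to 12.3% in the fetal libraries (16 of 19 higher), with postnatal replicate 1 at 49.3%. Proliferation markers took 0.0606% to 0.0739% in the postnatal and 0.385% to 0.498% in the fetal libraries (6 of 6 lower). Erythroid markers took 0.0731% to 0.173% in the postnatal and 0.372% to 1.25% in the fetal libraries (8 of 8 tested lower). Mesenchymal markers took 0.448% to 1.20% in the postnatal and 0.156% to 0.243% in the fetal libraries (6 of 6 higher), and hepatic markers reached 0.743% in fetal replicate 2. No marker gene of these lists found in the table was at 0 in all libraries, and the Wilson 95% interval of a share reached at most 0.0181 percentage points from it, counting error only.

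All 8 cycle enzyme genes were lower in the postnatal than in the fetal libraries. Of the 12926 genes tested across the whole table, 33.1% were called lower, 30.0% higher and 63.1% either way, at a Benjamini-Hochberg adjusted p under 0.05 by limma on log2(value + 1), a scale that understates the change of low genes. The median log2 fold change of the 8 was -1.03, with a range of -1.34 for Idh2 to -0.49 for Sucla2, beside a median of -0.03 for all genes tested. At least a 2-fold fall was called in 5 of the 8 (Idh2, Suclg2, Mdh2, Suclg1 and Idh3a) and in 12.1% of the genes tested, though Idh3a (-1.01), Suclg1 (-1.04) and Mdh2 (-1.05) lay just past that line. After rescaling without acinar, endocrine and erythroid markers Idh2 stood at -1.10 and the next gene, Suclg2, at -0.94, so 1 of the 8 was past it. That rescaling moved the whole table, with a median of 0.20 for all genes tested. Relative to that median the 8 stood at -0.99, against -1.0 before the rescaling. A factor per library moves all genes nearly alike, so this difference could hardly change and is no check. The share of all genes past the line in that setting is not reported here. In all 8 the 3 postnatal values lay below the 3 fetal values, as they did in 36.9% of the genes tested. In these bulk libraries fewer cells of a type and less RNA per cell cannot be told apart. The marker shares given above moved with the groups, and their part in the fall of the 8 genes was not tested.

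**Figure D1:**
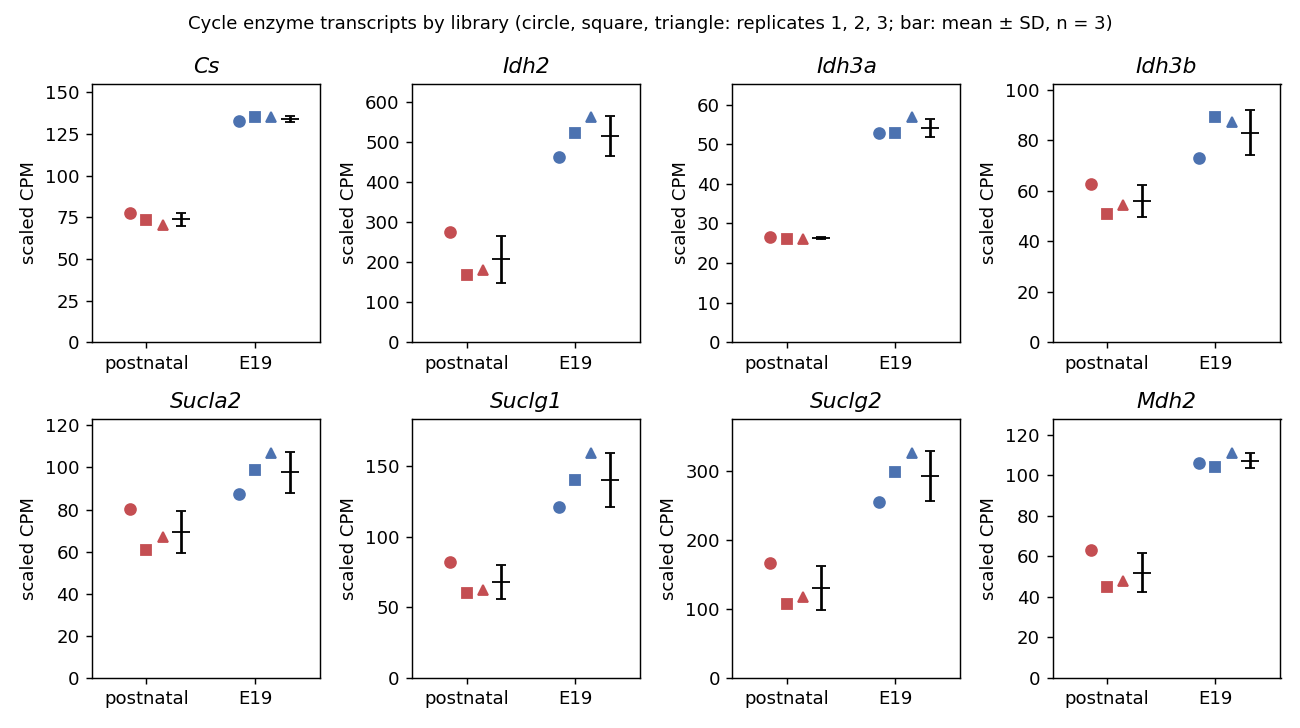
Scaled CPM of the 8 cycle enzyme genes in each library (vertical axes, starting at 0), postnatal libraries in red left of fetal (E19) libraries in blue, with mean ± SD of 3 libraries as black bars. In every panel the 3 postnatal points lie below the 3 fetal points, closest together for Sucla2 (80.2 in postnatal replicate 1 against 87.4 in fetal replicate 1).

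Citrate synthase, encoded by Cs, joins acetyl-CoA to oxaloacetate in the entry step of the cycle. Cs stood at 77.8, 73.1 and 70.3 scaled CPM in postnatal replicates 1, 2 and 3, against 133, 135 and 135 in fetal replicates 1, 2 and 3. The groups were far apart relative to their spread, with means of 73.7 ± 3.81 postnatally and 134 ± 1.63 in fetal libraries (SD, n = 3 each). Cs fell by 0.86 ± 0.09 on the log2 scale (SE; limma adjusted p = 1.47e-04), to 54.8% of its fetal mean.

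Isocitrate is oxidised in the matrix by a pair of enzymes: an NAD-dependent complex, of which Idh3a encodes the catalytic and Idh3b a regulatory subunit, and the NADP-dependent enzyme of Idh2, which yields NADPH for antioxidant defence. Idh2 stood at 274, 167 and 180.1 scaled CPM in postnatal replicates 1, 2 and 3, against 462, 521 and 561 in fetal replicates 1, 2 and 3. Postnatal replicate 1 was the highest of its group, yet below every fetal library. The mean was 207 ± 58.5 after birth and 515 ± 49.8 before it (SD, n = 3 each), a log2 fold change of -1.34 ± 0.20 (limma adjusted p = 7.40e-04).

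Idh3a showed the tightest postnatal values of the 8 genes in scaled CPM. It stood at 26.7, 26.0 and 26.2 scaled CPM in postnatal replicates 1, 2 and 3, against 52.9, 52.8 and 56.8 in fetal replicates 1, 2 and 3. With no adjustment between libraries, Idh3a was not the tightest, at 18.1, 26.8 and 26.0 CPM in postnatal replicates 1, 2 and 3. On that measure Idh2 stood at 186, 172 and 179 in the same libraries. The log2 fold change of Idh3a was -1.01 ± 0.09 (limma adjusted p = 8.14e-05, the smallest of the 8). Idh3b fell less, at 62.7, 50.8 and 54.2 in the postnatal libraries against 72.9, 89.0 and 87.1 in the fetal ones. Its log2 fold change was -0.56 ± 0.12 (limma adjusted p = 0.00469).

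Succinyl-CoA synthetase cleaves succinyl-CoA and makes a nucleoside triphosphate in the same step. Its alpha subunit, from Suclg1, is shared, while the beta subunit from Sucla2 makes the ATP-forming enzyme and that from Suclg2 the GTP-forming one. Matrix GTP from the Suclg2 form has been linked to glucose-stimulated insulin secretion in rodent beta cells. The region around the start of each of these genes is shown because these 3 genes encode the subunits of 1 enzyme whose ratios are compared further on. Each run gives 250 bases before and 50 after the annotated gene start, from RefSeq on GRCr8, 5′ to 3′ on the gene's own strand, with matches to the searched motifs (other than the SP1 box) in capitals. The build the authors used is not given in the sources used here.
Sucla2 promoter, chr15:55161644-55161943, plus strand: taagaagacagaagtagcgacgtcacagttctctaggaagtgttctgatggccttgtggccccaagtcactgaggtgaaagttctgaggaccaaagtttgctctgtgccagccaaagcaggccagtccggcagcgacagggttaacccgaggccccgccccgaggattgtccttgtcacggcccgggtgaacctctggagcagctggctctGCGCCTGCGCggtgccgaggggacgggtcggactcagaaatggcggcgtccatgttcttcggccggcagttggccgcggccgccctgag
Suclg2 promoter, chr4:129893888-129894187, minus strand: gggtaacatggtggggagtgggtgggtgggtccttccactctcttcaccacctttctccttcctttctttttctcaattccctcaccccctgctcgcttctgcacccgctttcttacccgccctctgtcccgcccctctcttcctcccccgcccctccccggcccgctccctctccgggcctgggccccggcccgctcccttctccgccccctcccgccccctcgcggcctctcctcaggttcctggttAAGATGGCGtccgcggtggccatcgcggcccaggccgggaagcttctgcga
Suclg1 promoter, chr4:106866079-106866378, plus strand: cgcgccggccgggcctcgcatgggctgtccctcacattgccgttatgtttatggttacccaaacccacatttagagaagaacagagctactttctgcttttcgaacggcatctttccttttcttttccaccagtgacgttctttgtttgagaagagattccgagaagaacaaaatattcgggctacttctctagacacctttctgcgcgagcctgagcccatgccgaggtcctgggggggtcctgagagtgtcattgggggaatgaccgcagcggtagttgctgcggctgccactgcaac

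Suclg1 stood at 81.8, 60.1 and 61.9 scaled CPM in postnatal replicates 1, 2 and 3, against 121, 140.0 and 159.6 in fetal replicates 1, 2 and 3. Suclg2 stood at 167, 107 and 117 in the postnatal libraries, against 255, 299 and 327 in the fetal ones. In both genes replicate 1 was the highest postnatal and the lowest fetal library in scaled CPM, and a wide gap separated the groups. With no adjustment between libraries, replicate 1 was the highest postnatal library in neither. The log2 fold change was -1.04 ± 0.15 for Suclg1 (limma adjusted p = 7.56e-04) and -1.18 ± 0.18 for Suclg2 (limma adjusted p = 9.11e-04).

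Sucla2 changed least of the 8 genes. It stood at 80.2, 60.7 and 67.1 scaled CPM in postnatal replicates 1, 2 and 3, against 87.4, 98.9 and 107 in fetal replicates 1, 2 and 3. The highest postnatal and the lowest fetal library nearly met. Its mean was 69.3 ± 9.95 after birth and 97.7 ± 9.76 before it (SD, n = 3 each), with a log2 fold change of -0.49 ± 0.13 (limma adjusted p = 0.0117). Under other scalings between libraries that value ran from -0.84, with equal totals, to -0.25, without acinar, endocrine and erythroid markers, where the adjusted p was at most 0.0493.

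Malate dehydrogenase of the matrix, encoded by Mdh2, regenerates oxaloacetate and also works in the malate-aspartate shuttle that carries reducing equivalents into mitochondria. Mdh2 stood at 63.0, 44.8 and 47.8 scaled CPM in postnatal replicates 1, 2 and 3, against 106, 104 and 111 in fetal replicates 1, 2 and 3. In scaled CPM the fetal values lay close together and the postnatal ones apart, with replicate 1 again on top. With no adjustment between libraries the postnatal values were 42.7, 46.2 and 47.5 CPM and the fetal ones 133, 114 and 118. The log2 fold change was -1.05 ± 0.14 (limma adjusted p = 4.24e-04).

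In order of the fall, Idh2, Suclg2, Mdh2, Suclg1 and Idh3a followed each other with gaps of at most 0.16 on the log2 scale. The genes share the same libraries, so the SE of a single gene does not measure the error of a gap. Cs came next, 0.15 above Idh3a. The widest gap, 0.30, lay between Cs and Idh3b, and Sucla2 stood 0.07 above Idh3b. Within the postnatal group, replicate 1 was the highest library in all 8 genes, from 1.02 times the mean of the other two libraries (Idh3a) to 1.58 times (Idh2). In RPM, the same measure with no adjustment between libraries, it was the highest in only 1 of the 8, Idh2, with 186, 172 and 179 in postnatal replicates 1, 2 and 3. That library combined the highest acinar share, 49.3%, with the smallest library factor, 0.677. Its age field reads week 2, against weeks 3 and 4 for postnatal replicates 2 and 3. The part of each of these in the level of the genes in that library was not tested.

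The 8 genes together took 564, 608 and 620 RPM in postnatal replicates 1, 2 and 3, against 1613, 1574 and 1633 in fetal replicates 1, 2 and 3. Groups did not overlap, and the postnatal mean was 37.2% of the fetal one. Of the reads outside acinar, endocrine and erythroid markers they took 1214, 931 and 969 RPM in postnatal replicates 1, 2 and 3, against 1799.6, 1834 and 1862 in fetal replicates 1, 2 and 3, so the postnatal mean was 56.7% of the fetal mean with those abundant transcripts left out. Each of these shares had p = 0.1 by a two-sided exact permutation test, the smallest p that 3 libraries against 3 allow. Wilson 95% intervals reached at most 15.5 RPM from the first set of values and 18.7 from the second, for counting error only.

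Ratios of genes within a library do not depend on scaling between libraries, and 9 of 10 such pairs could be computed, the tenth needing Ogdh. The ratio of Sucla2 to Suclg2 was 0.480, 0.567 and 0.572 in postnatal replicates 1, 2 and 3, against 0.343, 0.331 and 0.327 in fetal replicates 1, 2 and 3. Every postnatal library had relatively more transcript of the ATP-forming subunit, by a log2 difference of 0.69 ± 0.08 (SE), or 1.61-fold. Protein was not measured. The ratio of Suclg1 to Sucla2 was 1.02, 0.990 and 0.923 postnatally against 1.39, 1.42 and 1.49 before birth, a log2 difference of -0.55 ± 0.05, while that of Suclg1 to Suclg2 differed by 0.14 ± 0.06, and by 0.09 without postnatal replicate 2. Of the 3 ratios within this enzyme, the last differed least between the groups.

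For isocitrate dehydrogenase the ratio of Idh3a to Idh3b was 0.425, 0.512 and 0.484 in postnatal replicates 1, 2 and 3, against 0.727, 0.593 and 0.652 in fetal replicates 1, 2 and 3, a log2 difference of -0.47 ± 0.12. The transcript of the catalytic subunit was lower relative to that of the regulatory one in every postnatal library. Idh2 relative to Idh3a overlapped between groups (log2 difference -0.30 ± 0.22; exact permutation p = 0.4, 0.45 adjusted over the 9 pairs; -0.51 without postnatal replicate 1 and -0.17 without postnatal replicate 2). Idh2 relative to Idh1, which encodes the cytosolic NADP-dependent enzyme, also overlapped (-0.09 ± 0.22; exact permutation p = 0.8, 0.8 adjusted). That difference was -0.29 without postnatal replicate 1 and -0.14 without fetal replicate 2. It lay between -0.02 and 0.02 without fetal replicate 1, postnatal replicate 2 or postnatal replicate 3.

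Mdh2 relative to its cytosolic counterpart Mdh1 was 0.357, 0.298 and 0.233 in postnatal replicates 1, 2 and 3, against 0.546, 0.437 and 0.416 in fetal replicates 1, 2 and 3. The transcript of the matrix form was lower relative to that of the cytosolic form after birth, by a log2 difference of -0.67 ± 0.22. Mdh2 relative to Cs overlapped (-0.20 ± 0.12; exact permutation p = 0.3, 0.386 adjusted). That difference was -0.10 when postnatal replicate 2 was left out, and -0.31 when postnatal replicate 1 was. Cs relative to Vdac1, a channel of the outer mitochondrial membrane, was higher in the postnatal libraries by 0.24 ± 0.10, and by 0.16 without fetal replicate 3. The 6 pairs whose groups did not overlap each had an exact permutation p of 0.1, the smallest possible, and 0.15 after adjustment over the 9 pairs, so none could pass the threshold in this design.

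**Figure D2:**
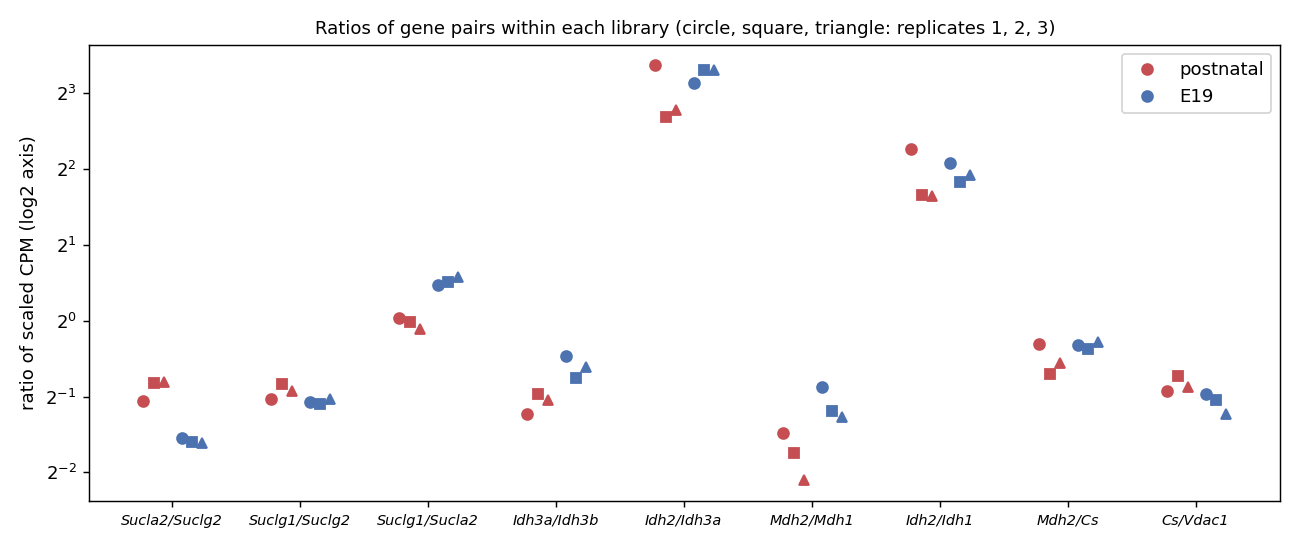
Ratio of the scaled CPM of paired genes within each library, on a log2 axis, with postnatal libraries in red left of fetal (E19) libraries in blue. The Sucla2/Suclg2 ratio is 0.480 to 0.572 in postnatal and 0.327 to 0.343 in fetal libraries, whereas Idh2/Idh3a, Idh2/Idh1 and Mdh2/Cs overlap.

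Other enzymes of the cycle were lower as well. Of the 7 described here, 7 fell, with a median log2 fold change of -0.84, beside 33.1% lower among all genes tested. The lowest log2 fold changes were -1.14 ± 0.14 for Sdhd (limma adjusted p = 3.33e-04) and -1.07 ± 0.13 for Fh (limma adjusted p = 3.26e-04); Sdhd encodes a membrane anchor of succinate dehydrogenase and Fh encodes fumarase. Fh stood at 58.8, 48.4 and 52.1 scaled CPM in postnatal replicates 1, 2 and 3, against 95.8, 119 and 125 in fetal replicates 1, 2 and 3. The other succinate dehydrogenase subunit genes Sdha, Sdhc and Sdhb fell by 0.87 ± 0.15, 0.84 ± 0.12 and 0.77 ± 0.13.

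The transferase Dlst and the dehydrogenase Dld, components of the 2-oxoglutarate dehydrogenase complex to which Ogdh also belongs, fell by 0.73 ± 0.09 and 0.60 ± 0.15.

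Among the 3 cytosolic counterparts, 1 was called lower, Idh1, beside 33.1% of all genes tested. With equal totals all 3 were (Mdh1 at -0.75, limma adjusted p = 0.0117, and Aco1 at -0.51, limma adjusted p = 0.0498), beside 5088 of the 12863 genes tested. Idh1 stood at 57.4, 53.1 and 57.6 scaled CPM in postnatal replicates 1, 2 and 3, against 109.8, 147 and 148 in fetal replicates 1, 2 and 3, and fell by 1.24 ± 0.13 (limma adjusted p = 1.95e-04). Mdh1 averaged 177 ± 27.4 postnatally and 234 ± 37.0 in fetal libraries (SD, n = 3 each) and did not pass (log2 fold change -0.40 ± 0.16, limma adjusted p = 0.0618), though it did without fetal replicate 1 (-0.52, adjusted p = 0.0280) or without postnatal replicate 3 (-0.51, adjusted p = 0.0394). Aco1, encoding the cytosolic aconitase that doubles as an iron sensor, averaged 85.9 ± 4.09 in postnatal and 96.0 ± 4.01 in fetal libraries (SD, n = 3 each) and did not pass (-0.16 ± 0.09; limma adjusted p = 0.153), with 0.08 after rescaling without the 20 highest genes.

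**Figure D3:**
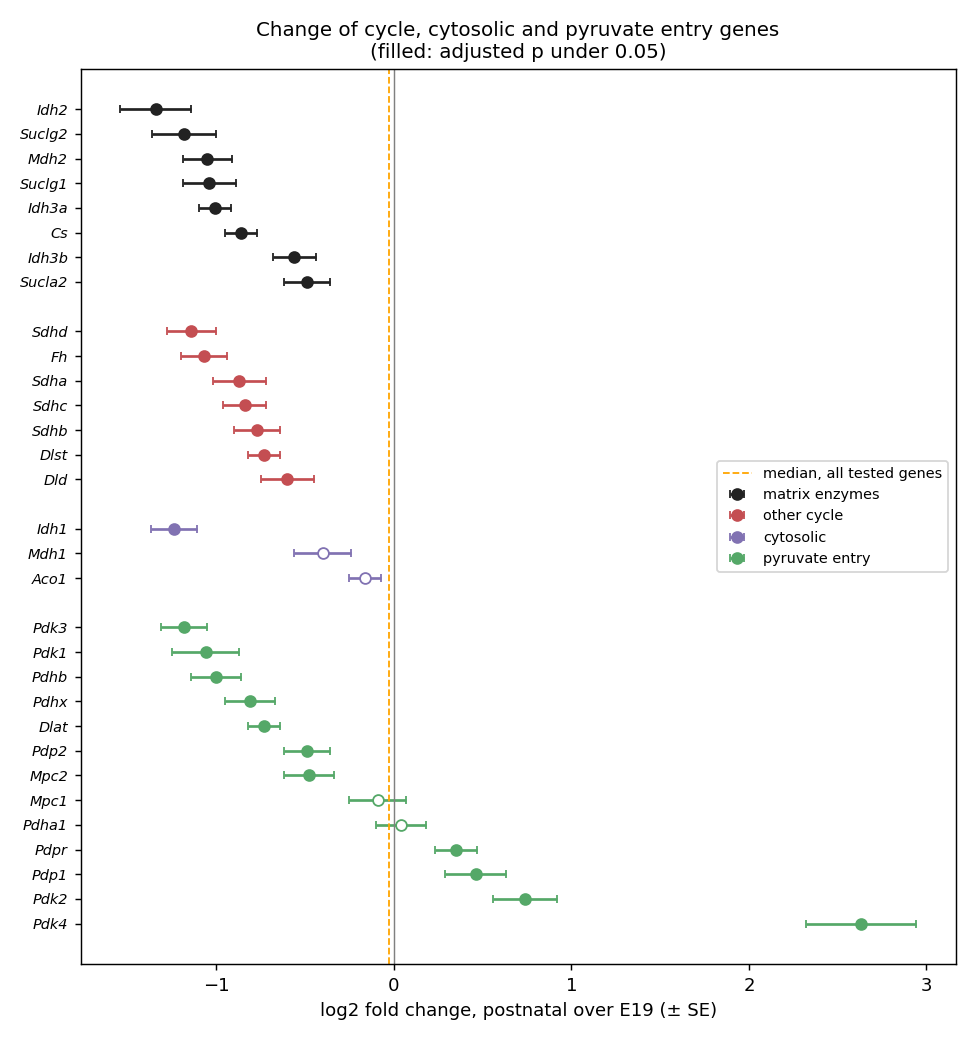
Log2 fold change with SE, postnatal over fetal (E19), of the 8 matrix enzymes (black), 7 other cycle enzymes (red), cytosolic counterparts (purple) and pyruvate entry genes (green); filled points passed the threshold and the dashed line is the median of all tested genes, -0.03. All black and red points lie left of zero, while the pyruvate entry genes spread from -1.18 (Pdk3) to 2.63 (Pdk4).

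Pyruvate enters the cycle as acetyl-CoA through pyruvate dehydrogenase, which kinases (Pdk genes) switch off and phosphatases switch on. Of 13 entry genes, 7 fell and 4 rose, with a median of -0.48, beside 33.1% lower and 30.0% higher among all genes tested. Pdk3 and Pdk1 fell by 1.18 ± 0.13 and 1.06 ± 0.19, while Pdk4 and Pdk2 rose by 2.63 ± 0.31 and 0.74 ± 0.18. Pdk4 stood at 42.3, 78.1 and 105 scaled CPM in postnatal replicates 1, 2 and 3, against 11.9, 11.5 and 8.45 in fetal replicates 1, 2 and 3. The kinase genes thus split in direction, and the Pdk2 call ended with equal totals (0.44, limma adjusted p = 0.142). Pdp1, encoding a phosphatase, and Pdpr, encoding a regulator of the phosphatase, were the other two that rose, by 0.46 ± 0.17 and 0.35 ± 0.12, and are named after their values were seen. The number that rose was 2 without fetal replicate 1, without fetal replicate 2 or without postnatal replicate 2, and 1 with equal totals. In the same order, 3600 of 12765, 3430 of 12760, 2863 of 12474 and 1780 of 12863 genes tested rose.

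Of 10 measured genes that fill or drain the cycle, 3 fell, 2 rose and 5 did not pass, near the 33.1% lower and 30.0% higher of all genes tested. Their median log2 fold change was -0.12, and 0.12 after rescaling without the 20 highest genes. Got2, the mitochondrial aspartate aminotransferase gene, fell by 0.87 ± 0.12, and Me2, encoding a mitochondrial malic enzyme, by 0.67 ± 0.19, a call that ended without fetal replicate 2 (-0.58, limma adjusted p = 0.0505) and after rescaling without the 20 highest genes (-0.44, limma adjusted p = 0.107). Me1, the cytosolic malic enzyme gene, stood at 30.7, 26.3 and 36.1 scaled CPM in postnatal replicates 1, 2 and 3, against 15.9, 14.9 and 14.7 in fetal replicates 1, 2 and 3, and rose by 0.98 ± 0.13. Pck1, encoding the cytosolic phosphoenolpyruvate carboxykinase, rose as well, at very low levels: it stood at 1.16, 3.75 and 8.91 postnatally, against 0.0614, 0.411 and 0.0308 before birth, where fetal replicates 1 and 3 lay under the worth of 3 reads. It passed the filter only through the postnatal libraries. Pck1 left the test with any postnatal library left out, with a filter of at least 5 and with equal totals. The number of genes that rose was 1 without postnatal replicate 1, without postnatal replicate 3, with that filter and with equal totals. In the same order, 3590 of 12507, 3027 of 12480, 3006 of 10839 and 1780 of 12863 genes tested rose.

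Of 6 carriers of cycle intermediates across the inner membrane, 3 fell and 2 rose (median -0.40), beside 33.1% lower and 30.0% higher among all genes tested. The aspartate-glutamate exchangers of the malate-aspartate shuttle went in opposite directions. Slc25a13, which encodes citrin, stood at 34.4, 16.7 and 15.4 scaled CPM in postnatal replicates 1, 2 and 3, against 68.0, 90.5 and 90.0 in fetal replicates 1, 2 and 3 (log2 fold change -1.93 ± 0.29). Slc25a12, which encodes aralar, stood at 26.0, 27.5 and 26.6 in the postnatal libraries against 15.1, 15.5 and 12.7 in the fetal ones (0.85 ± 0.11). Slc25a10, a dicarboxylate carrier gene, fell by 1.18 ± 0.20, and the glutamate carrier gene Slc25a22 rose by 0.61 ± 0.13. With equal totals neither rise was called (limma adjusted p = 0.0924 for Slc25a12 and 0.330 for Slc25a22).

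Of 10 genes for lipoic acid, iron-sulfur supply and relatives of Ogdh, 5 fell and 1 rose, with a median of -0.51. Here and for the lists that follow, 33.1% of all genes tested were lower and 30.0% higher. Lias, encoding lipoic acid synthase, fell by 0.97 ± 0.14. Ogdhl, which encodes a relative of the 2-oxoglutarate dehydrogenase subunit of Ogdh, was the gene that rose, at 14.6, 20.2 and 26.6 scaled CPM in postnatal replicates 1, 2 and 3 against 11, 9.29 and 9.0 in fetal replicates 1, 2 and 3 (0.96 ± 0.21; limma adjusted p = 0.00473, and 0.129 with equal totals). Calcium entering the matrix activates the NAD-dependent isocitrate dehydrogenase and the 2-oxoglutarate dehydrogenase. Of 5 tested genes of its uptake, 3 fell and 1 rose: the channel gene Mcu fell by 1.02 ± 0.11 and the gatekeeper gene Micu2 by 0.54 ± 0.09, and Micu3, encoding another gatekeeper, rose by 1.06 ± 0.14. After rescaling without the 20 highest genes, 2 of the 5 fell and 2 rose, beside 3213 and 5065 of the 12939 genes tested. Among 6 partners of Idh2 in NADPH metabolism and deacetylation, 3 fell and 3 did not pass. With equal totals 5 fell, beside 5088 of the 12863 genes tested. Gsr, encoding glutathione reductase, stood at -1.54 ± 0.16 and the thioredoxin reductase gene Txnrd2 at -1.09 ± 0.13.

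Other mitochondrial genes gave a measure of the setting, where 33.1% of all genes tested were called lower and 30.0% higher. All 11 tested genes of channel, import, chaperone and scaffold proteins fell (median -0.88), led by the chaperonin gene Hspd1 (-1.87 ± 0.13) and the prohibitin gene Phb (-1.71 ± 0.21), and Vdac1 fell by 1.10 ± 0.12. Relative to their sum, the 8 cycle enzymes stood at 0.580, 0.495 and 0.479 in postnatal replicates 1, 2 and 3, against 0.476, 0.487 and 0.455 in fetal replicates 1, 2 and 3, ranges that overlapped (log2 difference 0.13 ± 0.09; exact permutation p = 0.2). Without postnatal replicate 1 that difference was 0.04. Hspd1 was the highest gene of that reference sum, with a mean of 253 scaled CPM in postnatal and 931 in fetal libraries. Of the 13 protein genes of the mitochondrial genome, 12 did not pass and 1, Mt-atp8, fell (-0.35 ± 0.13; limma adjusted p = 0.0441), with a median of -0.05. The number that fell was 0 without postnatal replicates 2 or 3 or fetal replicates 1 or 3, where 3518 to 4060 of all genes fell. It was 5 without postnatal replicate 1, beside 4454 of the 12507 genes tested. Without fetal replicate 2 it was 3, beside 3599 of the 12760 genes tested. With equal totals 6 fell, beside 5088 of the 12863 genes tested. After rescaling without the 20 highest genes 3 rose (Mt-co3, Mt-cyb and Mt-nd3, named after their values were seen) and 0 fell. In that setting 5065 of the 12939 genes tested rose and 3213 fell. Relative to the mitochondrially encoded sum, the cycle enzymes stood at 0.0682, 0.0442 and 0.050 in postnatal replicates 1, 2 and 3, against 0.112, 0.115 and 0.110 in fetal replicates 1, 2 and 3, without overlap (log2 difference -1.08 ± 0.19; exact permutation p = 0.1). Mt-co1 (named after its values were seen) led the mitochondrially encoded sum, with a mean of 7976 scaled CPM in postnatal and 7921 in fetal libraries. Next was Mt-co3, at 1476 and 1346. Idh2 led the sum of the 8 enzymes, at 207 and 515. Both reference sums were chosen after the data were seen.

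Of 8 tested regulators of mitochondrial gene expression, 4 fell and 4 did not pass, with a median of -0.32. Of all genes tested, 33.1% were lower and 30.0% higher. Tfam, encoding the mitochondrial transcription and packaging factor, fell by 0.68 ± 0.12 and Gabpb1, encoding a subunit of an ETS-type factor, by 0.59 ± 0.11. The number that fell was 2 after rescaling without the 20 highest genes, where 3213 of the 12939 genes tested fell. With fetal replicate 1 left out 1 rose, Ppargc1b (named after its values were seen), beside 3600 of the 12765 genes tested. In the promoter windows, 7 of the 8 cycle enzyme genes and 9820 of the 12926 tested genes had a RefSeq sequence. Both strands were searched for the NRF1 motif, TNAAGGTCA (estrogen-related receptors), CCGGAAG (ETS factors such as GABP), AANATGGCG (YY1), TGACGTCA (cyclic AMP response element) and GGGCGG (SP1).

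The 7 windows shared no motif in full. The NRF1 motif was found, as GCGCCTGCGC, in Sucla2 only among the 7, and in 9.49% of all 9820 windows. ETS letters were found in Idh3b and Mdh2 (16.8% of all), YY1 letters in Suclg2 (5.89%), cyclic AMP response letters in Mdh2 (2.99%) and SP1 letters in Cs, Idh2, Sucla2, Suclg2 and Mdh2 (61.7%). The estrogen-related receptor letters were in none of the 7 and in 0.621% of all. The Mdh2 window is shown as the only one of the 7 with matches to a pair of motifs besides SP1.
Mdh2 promoter, chr12:26543792-26544091, minus strand: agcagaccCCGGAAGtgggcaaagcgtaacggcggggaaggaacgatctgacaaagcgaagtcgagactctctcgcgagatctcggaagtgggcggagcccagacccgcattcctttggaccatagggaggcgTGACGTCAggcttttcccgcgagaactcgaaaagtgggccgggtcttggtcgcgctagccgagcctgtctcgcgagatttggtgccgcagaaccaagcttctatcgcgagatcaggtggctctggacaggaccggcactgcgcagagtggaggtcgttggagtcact

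Windows of the 7 genes held 50.3% (Idh3b) to 70.0% (Idh2) G and C, beside a median of 60.7% over all 9820. Suclg1 held none of the 6 motifs, and a match or its absence describes these letters and nothing else.

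The genes whose profile lay closest to the mean profile of the 8 enzymes, by Euclidean distance of centred log2 values over the 6 libraries among 12918 other genes, were Mrps35, Polr2e, Mrps5, Dohh and Pdss2, at distances of 0.070 to 0.089. Mrps35 and Mrps5 encode proteins of the mitochondrial ribosome, Polr2e an RNA polymerase subunit, Dohh an enzyme that completes hypusine and Pdss2 a subunit for the side chain of coenzyme Q. Mrps35 stood at 21.0, 16.0 and 16.9 scaled CPM in postnatal replicates 1, 2 and 3, against 32.3, 37.3 and 39.4 in fetal replicates 1, 2 and 3. The likeness of these profiles is what chose the genes.

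Scaling between libraries moved the level of all genes and of the enzymes alike. The median of all tested genes was -0.03 as reported, 0.20 after rescaling without the 20 highest genes and -0.36 with equal totals, and the median of the 8 enzymes was -1.03, -0.79 and -1.37 in the same settings. Relative to the median of all genes, the enzymes stood at -1.0, -0.99 and -1.02. A factor per library moves all genes nearly alike on the log2 scale, so these values could hardly differ. Over all genes, the numbers higher and lower were 3874 and 4278 as reported, 5065 and 3213 without the 20 highest genes, 5120 and 3194 without acinar, endocrine and erythroid markers, and 1780 and 5088 with equal totals.

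**Figure D4:**
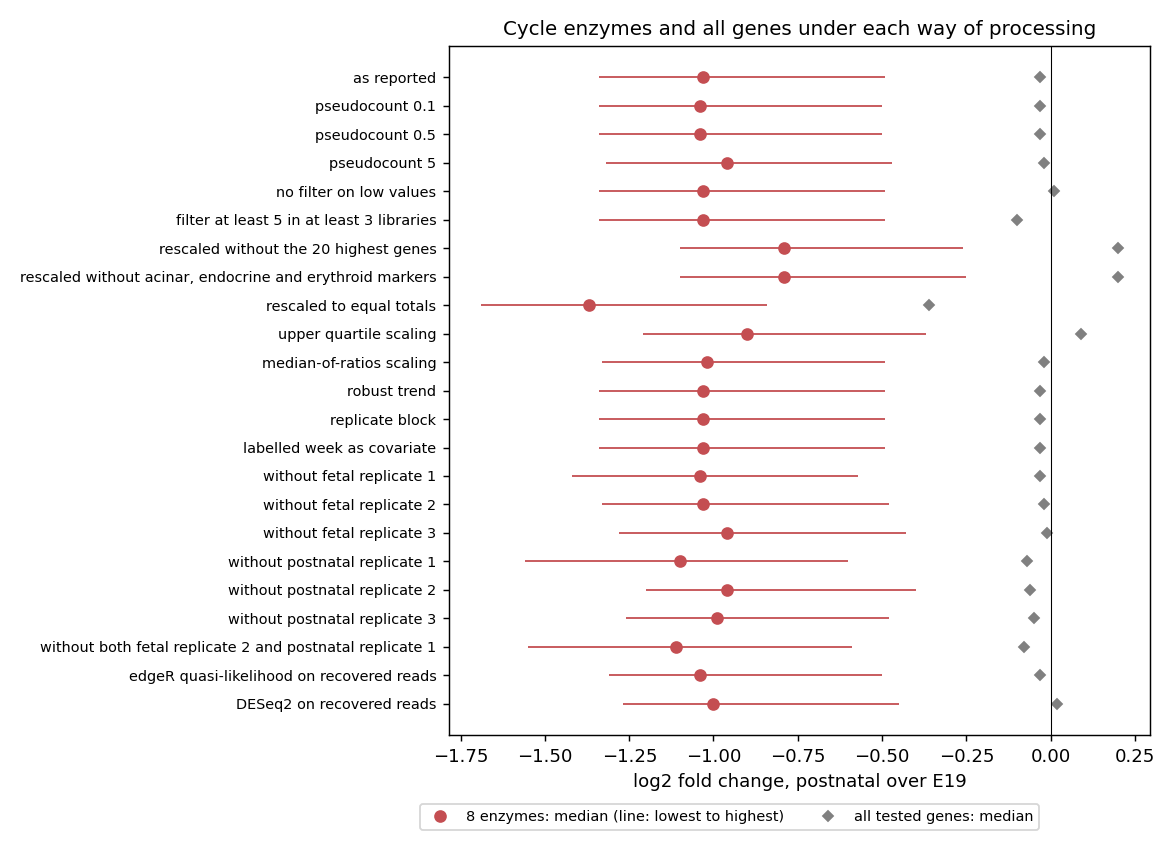
Median log2 fold change, postnatal over fetal (E19), of the 8 cycle enzymes (red points, with lines from the lowest to the highest gene) and of all tested genes (grey diamonds) under each way of processing. The median of the enzymes runs from -1.37 with equal totals to -0.79 without the 20 highest genes, and the line stays left of zero in each of the 23 settings.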

How the data were processed

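Total RNA of freshly isolated rat islets was extracted with TRIzol and RNeasy columns and sequenced after ribosomal RNA depletion with a stranded total RNA kit, per the labels' protocols. TopHat2 2.0.8b and edgeR 3.30.3 are named, without roles, per the submitters' processing notes; the genome build, annotation, counter and strand setting are not stated there, and reads shared by overlapping or antisense genes, pseudogenes or near-identical copies may be misassigned. The authors deposited a normalized signal per gene, which is a whole number of reads times 1 constant per library (100% of values whole within 0.001 reads). The constants equal CPM of a library size multiplied by TMM factors (0.677 to 1.25), so the deposited signal is called scaled CPM. A row without a gene name held at most 3.19e-05% of a library and was left out of the tests.

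Genes with at least 1 scaled CPM in at least 3 libraries entered a two-sided limma 3.58.1 fit (R 4.3.3; trend on; group as the only term) of log2(value + 1), with Benjamini-Hochberg adjustment over all 12926 genes; all 8 cycle enzymes passed the filter in every library. Count tests on the recovered reads with edgeR 4.0.16 and DESeq2 1.42.0 were alternatives, beside other pseudocounts (0.1, 0.5 and 5), filters, ways of scaling, a robust version of the trend, a replicate block, a term for the labelled week and left-out libraries. The edgeR test called 3878 genes higher and 4251 lower. Pair ratios and shares were tested by two-sided exact permutation over libraries. No pair of libraries was a duplicate, the chi-square statistic between replicates being 45.6 to 370 per degree of freedom. The limma fit, but not the count tests, was run on simulated data with few changed genes and the same spread setting for every gene. These data hold far more changed genes, so no support for the calls is drawn from that run. The members, lists and tests were chosen with earlier results of these data known. Some results of these lists are not reported here. Named were the other cycle and cytosolic counterpart genes, up to 2 of the largest rises and falls of each further list, the partners in the ratios and the 5 genes of nearest profile. Of the listed symbols, Phb1 was matched through its older symbol Phb by a RefSeq table of GRCr8.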

Additional observations from a re-analysis of the deposited data

How the results depend on the processing

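Under 22 alternatives each of the 8 cycle enzymes stayed lower and past the threshold in all 176 fits of a gene, with adjusted p up to 0.0493 (Sucla2). Their median relative to that of all genes ran from -1.04 to -0.90, a difference that a change of scaling alone could hardly move. A term for the labelled week and the count tests with edgeR and DESeq2 changed none of these calls. The week term was centred within the postnatal libraries and constant in the fetal ones. It could therefore change the errors but not the log2 fold changes. Over all tested genes the number higher was 1780 with equal totals, against 3874 as reported; the cause was not tested. Aco1 changed sign, to 0.08, after rescaling without the 20 highest genes and without acinar, endocrine and erythroid markers, and was called lower, at -0.51, with equal totals. Idh3b was -0.32 without those markers and -0.91 with equal totals. Same-numbered libraries are not known to be paired: their deviations from the group means correlated at -0.207, 0.102 and -0.253 for numbers 1, 2 and 3, and only number 2 was above 0.1. With the replicate block, 3563 genes were higher and 3863 lower, all 8 enzymes stayed called, and the number of pyruvate entry genes that rose was 2. With the replicate block the log2 difference of Sucla2 to Suclg2 was 0.69, a value that this balanced block cannot move. Its sign-flip p was 0.25, the smallest that 3 pairs allow by an exact test. With fetal replicate 2 and postnatal replicate 1 left out together the 8 calls held, with a median of -1.11. Depth did not limit the 8 genes, the lowest of which had 527 reads, whereas Pck1 rested on few fetal reads. Scaled CPM is relative to the other transcripts of a library and gives no amount of RNA per cell.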
